A study of Arabidopsis thaliana with 19 samples.

Results

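UDP-dependent glucosyltransferases (UGTs) of plants move glucose from UDP-glucose onto small molecules, plant hormones among them. Glucose conjugates of auxin, salicylate, cytokinin and abscisic acid are regarded as storage, transport or inactive forms, so these enzymes lower the pool of free hormone. Other members of the same family add the glucose of glucosinolates, the sulfur-containing defence compounds of the Brassicaceae, and therefore work on the pathway that the studied transcription factors control.

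The genes described are 5 hormone-conjugating UGTs of Arabidopsis thaliana, taken by name, whose enzymes glucosylate 1 of these 4 hormones. They were chosen with earlier results of these data known and are not all UGTs of this kind, and others that were tested are described below. UGT74D1 (AT2G31750) glucosylates indole-3-acetic acid, the main auxin, and its oxidised form. UGT74F1 (AT2G43840) glucosylates salicylate, the defence hormone. UGT76C1 (AT5G05870) and UGT76C2 (AT5G05860) attach glucose to the ring nitrogens of cytokinins. UGT71C5 (AT1G07240) makes the glucose ester of abscisic acid, the hormone of drought and dormancy. All 5 were among the 15627 probe sets tested, out of 22810 on the array. In the RefSeq gene table (TAIR10.1) UGT76C1 and UGT76C2 are neighbouring loci, and UGT71C5 lies beside UGT71C4 (AT1G07250), a gene of its own subfamily.

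The study measured transcripts in the shoots of 14-day-old seedlings on 19 Affymetrix ATH1 arrays in 9 groups, with 3 arrays in the group WT_MYB29_MYB76 and 2 in each other group. The seedlings grew at 20 °C under 10 h of light and 14 h of dark, and cotyledons and hypocotyls had been cut off. MYB29_OE and MYB76_OE overexpressed MYB29 or MYB76, R2R3-MYB activators of aliphatic glucosinolate synthesis, and were set against the wild type group WT_MYB29_MYB76. ATR1_OE and MYB51_OE overexpressed ATR1 (also called MYB34) or MYB51, activators of indole glucosinolate synthesis, and were set against WT_ATR1_MYB51. ATR1_like_miR and MYB28_like_miR carried an artificial microRNA, labelled ATR1-like or MYB28-like with 35S in the title, and were set against WT_miR. The labels name no agent, age difference or ecotype, no promoter for the overexpressed genes, and not whether a line was 1 transformant or several. The labels of MYB28_like_miR replicate 2 disagree, with ATR1 in the source field, and that array was grouped by its title.

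The values are MAS5 signals, a probe set intensity on a linear scale that the authors scaled to a trimmed mean of 250 on every array. The median signal of an array was between 78.4 and 106, and replicate arrays correlated at 0.911 to 0.986 over the probe sets. The probe sets of the overexpressed factors are not named in the annotation used here, so their levels are not reported. No leaf marker of the list used was named. Of 10 nuclear photosynthesis genes looked up after the annotation was seen, 9 lay above the 98th percentile on every array, and LHCB4.3 lay at or above the 67.9th. The root marker EXPA7, 1 of 9 root markers named, had signals of 6.57 to 82.5, with group means of 16.2 to 31.0 except 63.0 in WT_ATR1_MYB51. The seed reserve marker ICL, 1 of 5 named, stayed under each array's 20th percentile, and none of 4 flower and 2 shoot meristem markers was named. Signals of 68 plastid-encoded probe sets split the arrays: their median log2 signal was 4.99 to 5.45 in MYB29_OE and MYB76_OE and 8.08 to 11.3 in WT_MYB29_MYB76, and it was 9.46 to 10.9 in the microRNA lines and 4.64 to 5.48 in WT_miR. In ATR1_OE and MYB51_OE it was 5.30 to 6.0, and in WT_ATR1_MYB51 it was 5.53 to 6.41. Plastid-encoded signal therefore differs between line and wild type in 4 of the 6 comparisons, and its part in any value of those comparisons was not tested.

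Every value below a floor, the array's 20th percentile (12.4 to 19.1), was set to that floor ahead of the log2 step. A gene was called changed where the adjusted p of limma (Benjamini-Hochberg over all probe sets tested) was under 0.05. Where a difference missed the threshold, its 95% interval shows the sizes it leaves possible. The intervals are of each gene alone and are not adjusted over the probe sets tested. An interval that does not include equal levels is therefore not a call. Of the 30 tests of the 5 genes against wild type, limma called 2. UGT74F1 rose in MYB29_OE, and UGT71C5 fell in MYB76_OE.

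**Figure D1:**
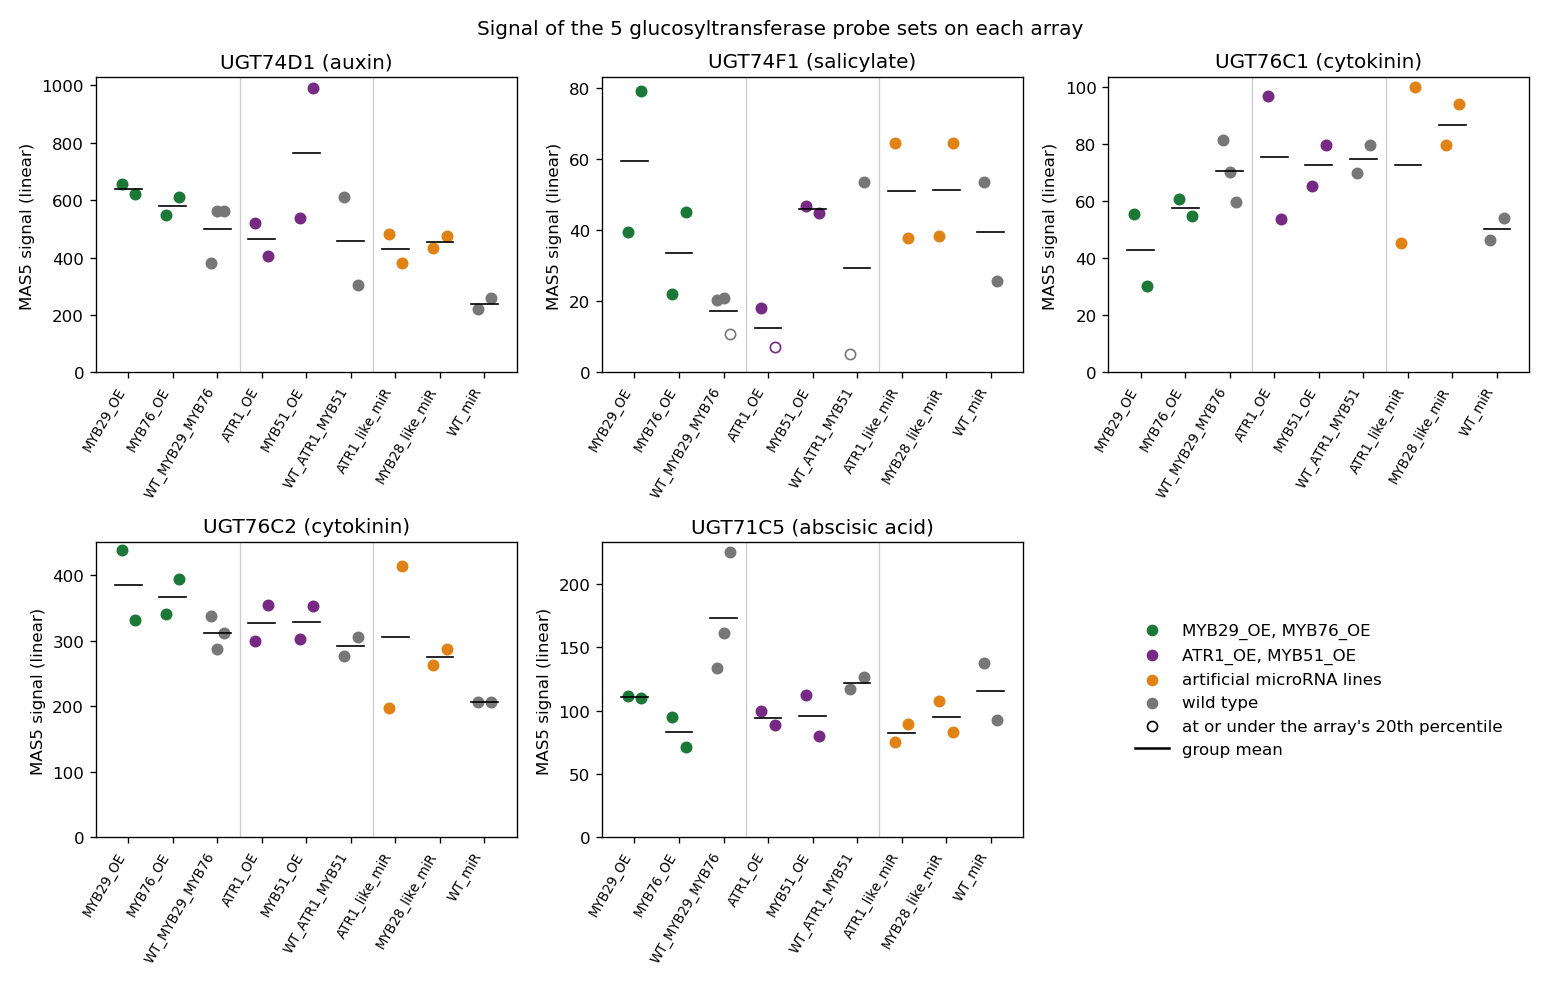
MAS5 signal (linear scale, vertical axes) of each of the 5 glucosyltransferase probe sets on the 19 arrays, with 1 point per array, open where it lay at or under the array's 20th percentile, and a bar at the group mean. UGT71C5 points of the lines lie mostly under those of their wild type arrays, and UGT74F1 is the gene with open points, on 3 of 19 arrays.

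In MYB29_OE against its wild type, 1 of the 5 genes was called, where 14.7% of all probe sets tested were (8.09% higher and 6.63% lower), and 4 of the 5 did not overlap between the groups, where 44.7% of all did not. In MYB76_OE 1 of 5 was called, against 12.8% of all (7.15% higher and 5.61% lower), and 3 of 5 did not overlap, against 46.7% of all. ATR1_OE had 0 of 5 called by limma, where 15.2% of all were called, and 1 of 5 did not overlap, against 59.1%. MYB51_OE had 0 of 5 called by limma, where 1.38% of all were, and 1 of 5 did not overlap, against 37.8%. In ATR1_like_miR limma called 0 of 5, where 2.02% of all were called, and 2 of 5 did not overlap, against 51.5%. MYB28_like_miR had 0 of 5 called by limma, where 6.43% of all were, and 3 of 5 did not overlap, against 55.5%. At an unadjusted limma p under 0.05 there were 3 of the 5 genes in MYB29_OE, where 31.1% of all probe sets reached it, and 1 of 5 in MYB76_OE, where 29.4% did. The same count was 0 of 5 in ATR1_OE (30.3% of all) and 1 of 5 in MYB51_OE (11.0% of all). It was 1 of 5 in ATR1_like_miR (16.2% of all) and 1 of 5 in MYB28_like_miR (23.5% of all). With counts this small, the share of the genes called does not stand apart from the share over the whole array. The median log2 difference of the 5 genes was 0.29 in MYB29_OE and 0.23 in MYB76_OE, where that of all probe sets tested was 0.060 and 0.049. It was -0.051 in ATR1_OE and 0.17 in MYB51_OE, beside -0.13 and -0.068 over all, and 0.42 in each microRNA line, beside -0.097 over all in ATR1_like_miR and -0.14 in MYB28_like_miR.

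Quantile normalization moved the median over all probe sets by 0.12 in ATR1_OE and by 0.11 in MYB28_like_miR on the log2 scale. It also moved the split of calls in ATR1_OE, with 865 higher and 1503 lower as scaled by the authors and 1025 higher and 1126 lower after it. For MYB28_like_miR the split was 322 higher and 683 lower against 363 and 362, and for ATR1_like_miR 136 higher and 179 lower against 184 and 142. Relative to that median, UGT76C1 in ATR1_OE stood at 0.078 as scaled and at 0.26 after quantile normalization, and its difference before that subtraction, -0.051, turned to 0.25. UGT74F1 in ATR1_OE stood at -0.96 and -0.75. In MYB28_like_miR UGT74D1 stood at 1.06 and 1.12, UGT76C1 at 0.93 and 1.03, and UGT71C5 at -0.12 and -0.026.

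**Figure D2:**
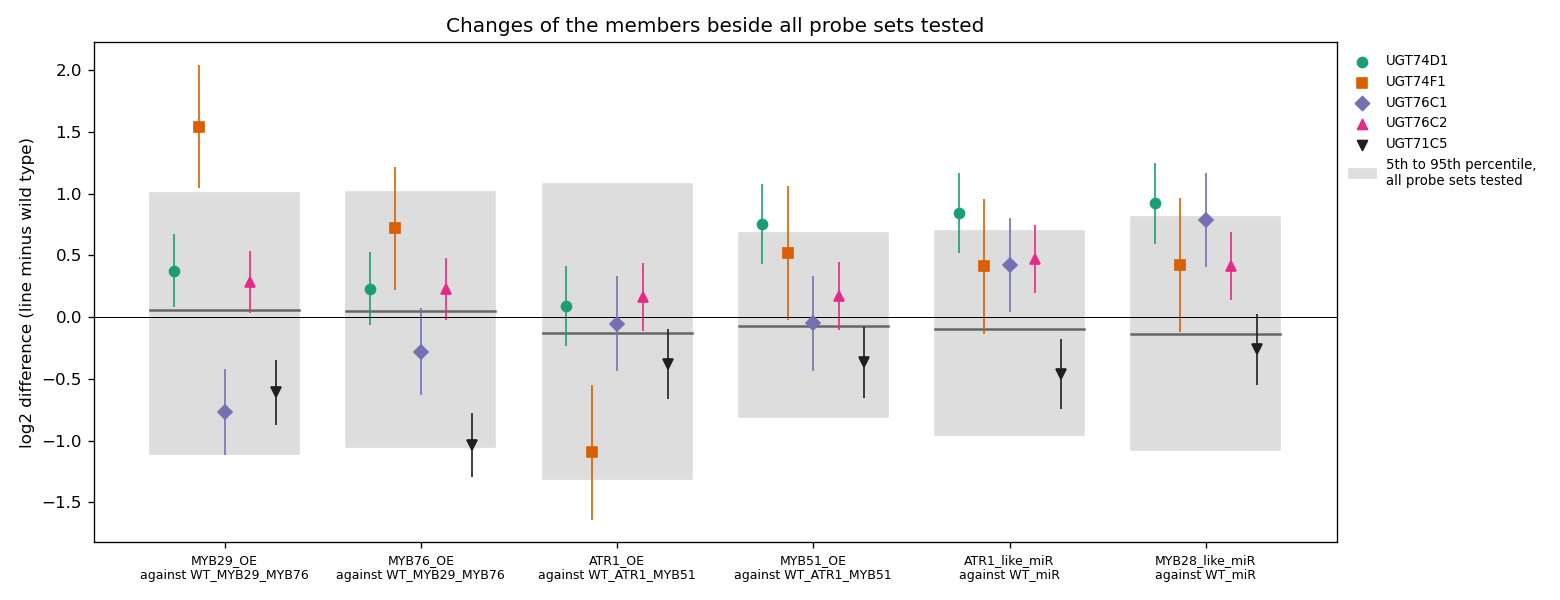
Log2 difference of the 5 genes in each line against its own wild type (points, with the standard error as a bar), beside the 5th to 95th percentile of all 15627 probe sets tested (grey box) and their median (grey line). UGT74F1 in MYB29_OE and UGT74D1 in MYB51_OE, ATR1_like_miR and MYB28_like_miR lie above the box, and UGT71C5 in MYB76_OE lies inside it, close to the lower edge.

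UGT74D1, the auxin glucosyltransferase, lay well above the floor on every array, at 219.6 to 989. MYB29_OE arrays had signals of 658 and 623 and MYB76_OE arrays 549.8 and 610.2, against 380.2, 562 and 561 in WT_MYB29_MYB76. Both MYB29_OE arrays lay above all 3 wild type arrays, while 1 MYB76_OE array lay among them. The log2 difference was 0.38 (95% interval -0.26 to 1.01; limma adjusted p = 0.415) in MYB29_OE and 0.23 (-0.40 to 0.86; limma adjusted p = 0.642) in MYB76_OE.

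For UGT74D1 in the indole pair, signals were 521 and 406 in ATR1_OE and 539 and 989 in MYB51_OE, against 611.5 and 305 in WT_ATR1_MYB51. The wild type arrays differed by more than the ATR1_OE arrays did, and both groups overlapped with wild type. MYB51_OE gave a log2 difference of 0.76 (95% interval 0.066 to 1.45; limma adjusted p = 0.392), and ATR1_OE gave 0.092 (-0.60 to 0.78; limma adjusted p = 0.877). Leaving out 1 array at a time moved the ATR1_OE value between -0.41 and 0.59.

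In the microRNA lines UGT74D1 had its largest differences from wild type. The signals were 480.5 and 382 in ATR1_like_miR and 432 and 474 in MYB28_like_miR, against 219.6 and 259.8 in WT_miR. All 4 arrays of the lines lay above both wild type arrays. ATR1_like_miR differed by 0.84 on the log2 scale (95% interval 0.15 to 1.54; limma adjusted p = 0.212) and MYB28_like_miR by 0.92 (0.23 to 1.61; limma adjusted p = 0.101), so neither passed the threshold.

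The WT_miR level of UGT74D1 was itself the lowest of the 9 groups, at 239.7 ± 28.5 (SD, n = 2). WT_MYB29_MYB76 arrays averaged 501 ± 105 (SD, n = 3), higher than WT_miR by 1.05 on the log2 scale, which limma called (adjusted p = 0.0216; 21.2% of all probe sets were called between these wild types). Experiment and wild type group cannot be told apart, since each experiment has its own wild type. With the 5 wild type arrays outside their experiment as control, the differences of UGT74D1 were -0.13 in ATR1_like_miR and -0.048 in MYB28_like_miR. By mean log2 signal the order ran MYB51_OE, MYB29_OE, MYB76_OE, WT_MYB29_MYB76, ATR1_OE, MYB28_like_miR, WT_ATR1_MYB51, ATR1_like_miR and WT_miR, and neighbours overlapped except MYB29_OE with MYB76_OE and ATR1_like_miR with WT_miR.

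Auxin genes chosen as a pathway list were named for 8 of 24 members, of which 6 were tested. The list was chosen with earlier results of these data known. Its counts, here and in the next paragraph, therefore describe these genes and are not an independent test of auxin genes. In ATR1_OE 5 of these 6 rose, where 5.54% of all probe sets were called higher. GH3.5, which joins auxin to amino acids, rose by 2.55 on the log2 scale (limma adjusted p = 0.00091), with 317 ± 25.9 in ATR1_OE and 55.5 ± 16.8 in WT_ATR1_MYB51 (SD, n = 2 each). GH3.3, of the same enzyme group, was at least 6.07-fold higher, as both wild type arrays lay under the floor (limma adjusted p = 0.0021). GH3.17 rose by 2.06 (limma adjusted p = 0.043), with 1 wild type array at the floor, and HAT2, an auxin-induced homeobox gene, by 1.76 (limma adjusted p = 0.00433). The wild type groups of the other experiments had higher means of these GH3 genes than ATR1_OE had. GH3.5 averaged 416 in WT_MYB29_MYB76 and 650 in WT_miR, GH3.3 126 and 395, and GH3.17 118 and 441. In ATR1_OE, GH3.3 averaged 117.5 and GH3.17 110.8. HAT2 did not share this, at 539 in ATR1_OE, 216 in WT_MYB29_MYB76 and 184 in WT_miR. UGT74D1 stood at 0.092 in ATR1_OE against WT_ATR1_MYB51.

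In MYB29_OE 3 of the 6 tested auxin genes fell, where 6.63% of all probe sets were called lower, and none rose, where 8.09% were called higher. IAA29, an Aux/IAA repressor gene, was at least 6.43-fold lower, with both MYB29_OE arrays at the floor (limma adjusted p = 0.000495). HAT2 fell by 1.72 on the log2 scale (limma adjusted p = 0.00323) and GH3.5 by 1.39 (limma adjusted p = 0.0207). Between the indole lines, 3 of the 6, GH3.3, GH3.5 and HAT2, were higher in ATR1_OE than in MYB51_OE, where 0.96% of all probe sets were called higher. In MYB76_OE, MYB51_OE and both microRNA lines limma called 0 of the 6.

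UGT74F1, the salicylate glucosyltransferase, gave signals close to the floor. It lay at the floor on 3 of 19 arrays and reached the array's 40th percentile on 5. MYB29_OE arrays had signals of 39.7 and 79.4 and MYB76_OE arrays 22.2 and 45.2, against 20.3, 21.1 and 10.7 in WT_MYB29_MYB76. All 4 arrays of the lines lay above the 3 wild type arrays, and the lowest wild type array lay under the floor.

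UGT74F1 rose in MYB29_OE by 1.54 on the log2 scale (SE 0.50, 95% interval 0.49 to 2.60), or 2.92-fold, with a limma adjusted p of 0.0488. This call ended when any 1 of the 5 arrays was left out. The difference was 1.58, 1.61 and 1.44 without wild type replicates 1, 2 and 3 (limma adjusted p = 0.0854, 0.0558 and 0.106). Without MYB29_OE replicate 1 it was 2.04, and without replicate 2 it was 1.04 (limma adjusted p = 0.0564 and 0.42). In MYB76_OE the difference was 0.72 (95% interval -0.34 to 1.78; limma adjusted p = 0.354).

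Signals of UGT74F1 in the indole experiment were 18.0 and 7.07 in ATR1_OE and 47.0 and 45.0 in MYB51_OE, against 5.27 and 53.7 in WT_ATR1_MYB51. The lower ATR1_OE array lay under its floor. The 2 wild type arrays lay at opposite ends, 1 of them under the floor, so both lines overlapped with wild type or lay between its arrays. ATR1_OE differed by -1.09 on the log2 scale (95% interval -2.25 to 0.065; limma adjusted p = 0.191) and MYB51_OE by 0.52 (-0.64 to 1.68; limma adjusted p = 0.793).

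Between the indole lines, UGT74F1 showed the largest difference of the 5 genes. Both ATR1_OE arrays, 1 of them at the floor, lay under both MYB51_OE arrays, with a fitted log2 difference of -1.61 (95% interval -2.77 to -0.46; limma adjusted p = 0.115). This size depends in part on the floor, as it was -2.03 with a floor at the 10th percentile and -1.15 as log2(signal + 16). None of the 5 genes was called in this comparison, where 2.67% of all probe sets were. An unadjusted limma p under 0.05 was reached by 1 of the 5, where 18.9% of all reached it. In the microRNA lines the signals were 64.7 and 37.8 in ATR1_like_miR and 38.4 and 64.5 in MYB28_like_miR, against 53.6 and 25.8 in WT_miR. Arrays of lines and wild type overlapped, with differences of 0.41 (95% interval -0.75 to 1.57) and 0.42 (-0.74 to 1.58).

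The order of mean log2 signal for UGT74F1 ran MYB29_OE, MYB28_like_miR, ATR1_like_miR, MYB51_OE, WT_miR, WT_ATR1_MYB51, MYB76_OE, WT_MYB29_MYB76 and ATR1_OE. Neighbours overlapped throughout except MYB76_OE with WT_MYB29_MYB76. The salicylate list had 2 of 21 genes named and 1 tested, GRX480, a glutaredoxin gene induced by salicylate. GRX480 fell by 2.64 on the log2 scale in ATR1_OE (limma adjusted p = 0.00437), with 25.9 ± 9.96 in ATR1_OE and 155 ± 16.3 in WT_ATR1_MYB51 (SD, n = 2 each). In MYB51_OE it was 33.8 ± 1.34 (SD, n = 2), a difference of -2.20 (limma adjusted p = 0.0537). WT_ATR1_MYB51 held the highest GRX480 mean of the 9 groups. WT_MYB29_MYB76 averaged 26.37 ± 21.57 (SD, n = 3), with 1 array at the floor, and WT_miR 80.04 ± 18.56 (SD, n = 2). The ATR1_OE mean was near that of WT_MYB29_MYB76, and the MYB51_OE mean lay between those of WT_MYB29_MYB76 and WT_miR.

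UGT76C1 and UGT76C2, the cytokinin N-glucosyltransferases, were not called in any of the 9 comparisons. UGT76C1 had signals of 55.4 and 30.3 in MYB29_OE and 60.7 and 54.7 in MYB76_OE, against 81.2, 70.2 and 59.7 in WT_MYB29_MYB76. Both MYB29_OE arrays lay under all wild type arrays, and 1 MYB76_OE array lay among them. The log2 difference was -0.77 in MYB29_OE (95% interval -1.51 to -0.027; limma adjusted p = 0.146) and -0.28 in MYB76_OE (-1.02 to 0.46; limma adjusted p = 0.635).

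In the indole experiment UGT76C1 had signals of 96.7 and 53.7 in ATR1_OE and 65.3 and 79.6 in MYB51_OE, against 69.9 and 79.7 in WT_ATR1_MYB51. The 3 groups overlapped, with differences of -0.051 and -0.050 (95% interval -0.86 to 0.76 for each line). Under quantile normalization these became 0.25 in ATR1_OE and 0.14 in MYB51_OE, so their direction depends on the scaling. The microRNA lines had 45.2 and 99.7 in ATR1_like_miR and 79.5 and 93.9 in MYB28_like_miR, against 46.3 and 54.2 in WT_miR. Both MYB28_like_miR arrays lay above wild type, by 0.79 on the log2 scale (95% interval -0.025 to 1.60; limma adjusted p = 0.227), while the ATR1_like_miR arrays lay on either side of wild type.

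UGT76C2 varied least, from 197.7 to 438 over all 19 arrays. It had signals of 438 and 331 in MYB29_OE and 340.0 and 394 in MYB76_OE, against 338, 288 and 312 in WT_MYB29_MYB76. Both MYB76_OE arrays lay above all wild type arrays, by a narrow margin, and 1 MYB29_OE array lay among them. The differences were 0.29 in MYB29_OE (95% interval -0.24 to 0.82) and 0.23 in MYB76_OE (-0.30 to 0.77), with limma adjusted p of 0.463 and 0.574.

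For UGT76C2 the indole lines gave 299 and 355 in ATR1_OE and 303 and 353 in MYB51_OE, against 277 and 305 in WT_ATR1_MYB51. Each line had 1 array below the higher wild type array, and the differences were 0.16 and 0.17 (limma adjusted p = 0.73 and 0.88). The microRNA experiment gave 197.7 and 414 in ATR1_like_miR and 263 and 288 in MYB28_like_miR, against 205.9 and 205.8 in WT_miR. Both MYB28_like_miR arrays lay above wild type, by 0.42 on the log2 scale (95% interval -0.17 to 1.0; limma adjusted p = 0.384), and the 2 ATR1_like_miR arrays lay 1 on each side of it. Against wild type arrays outside their experiment the differences of UGT76C2 were -0.083 in ATR1_like_miR and -0.14 in MYB28_like_miR.

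By mean log2 signal UGT76C1 ran MYB28_like_miR, WT_ATR1_MYB51, MYB51_OE, ATR1_OE, WT_MYB29_MYB76, ATR1_like_miR, MYB76_OE, WT_miR and MYB29_OE, and neighbours overlapped except MYB76_OE with WT_miR. UGT76C2 ran MYB29_OE, MYB76_OE, MYB51_OE, ATR1_OE, WT_MYB29_MYB76, WT_ATR1_MYB51, ATR1_like_miR, MYB28_like_miR and WT_miR, with overlap except between the last pair. Over the 19 arrays, centred on the mean of their experiment, these neighbouring genes had a Pearson r of 0.43, the highest among the 10 pairs of the 5 genes. The cytokinin list had 2 of 35 genes named, the response regulators ARR15 and ARR16, and neither was called in any comparison. ARR15 averaged 63.6 ± 24.6 in ATR1_OE and 135 ± 17.8 in WT_ATR1_MYB51 (SD, n = 2 each), a log2 difference of -1.14 (limma adjusted p = 0.0731).

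UGT71C5, the abscisic acid glucosyltransferase, lay under the mean log2 signal of its own wild type on all 12 arrays of the lines. Signals were 112 and 109.9 in MYB29_OE and 94.9 and 71.5 in MYB76_OE, against 133, 161 and 225 in WT_MYB29_MYB76. No array of either line reached a wild type array. UGT71C5 fell in MYB76_OE by 1.04 on the log2 scale (SE 0.26, 95% interval -1.59 to -0.48), or 2.05-fold, with a limma adjusted p of 0.0184. In MYB29_OE the difference was -0.61 (95% interval -1.16 to -0.055; limma adjusted p = 0.125).

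The call for UGT71C5 ended without WT_MYB29_MYB76 replicate 3, the highest wild type array, where the difference was -0.83 (limma adjusted p = 0.0628). It also ended without MYB76_OE replicate 1 (-1.24, limma adjusted p = 0.0679) or replicate 2 (-0.83, limma adjusted p = 0.195). WT_MYB29_MYB76 held the highest UGT71C5 mean of the 9 groups, 173 ± 47.0 (SD, n = 3), and with the 4 wild type arrays outside its experiment as control the difference in MYB76_OE was -0.51 (limma adjusted p = 0.419).

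In the indole experiment UGT71C5 had 99.4 and 88.5 in ATR1_OE and 112 and 79.9 in MYB51_OE, against 117 and 127 in WT_ATR1_MYB51. Neither line overlapped with wild type, and the differences were -0.38 in ATR1_OE (95% interval -0.98 to 0.23) and -0.37 in MYB51_OE (-0.97 to 0.24), with limma adjusted p of 0.402 and 0.71. The microRNA lines had 75.5 and 89.2 in ATR1_like_miR and 107 and 82.8 in MYB28_like_miR, against 137.5 and 92.8 in WT_miR. ATR1_like_miR lay under both wild type arrays, by -0.46 (95% interval -1.07 to 0.15; limma adjusted p = 0.462), and MYB28_like_miR overlapped with them, at -0.26 (-0.87 to 0.35; limma adjusted p = 0.625).

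The 3 wild type groups headed the UGT71C5 order of mean log2 signal, as WT_MYB29_MYB76, WT_ATR1_MYB51 and WT_miR. MYB29_OE, MYB51_OE, MYB28_like_miR, ATR1_OE, MYB76_OE and ATR1_like_miR followed, and neighbours overlapped except WT_MYB29_MYB76 with WT_ATR1_MYB51. UGT71C4, the neighbouring gene of the same subfamily, also fell in MYB76_OE, by 1.49 on the log2 scale (limma adjusted p = 0.00132), with 134 ± 15.2 in MYB76_OE and 377 ± 34.8 in WT_MYB29_MYB76 (SD, n = 2 and 3). It fell by 1.14 in MYB29_OE (limma adjusted p = 0.00764), at 171 ± 27.7 (SD, n = 2). WT_MYB29_MYB76 held the highest UGT71C4 mean of the 9 groups as well. The other wild types averaged 175 ± 45.2 in WT_ATR1_MYB51 and 135 ± 43.6 in WT_miR (SD, n = 2 each). UGT71C4 differed by 0.32 in ATR1_OE, -0.14 in MYB51_OE, 0.42 in ATR1_like_miR and 0.19 in MYB28_like_miR, none of them called. UGT71C4 and UGT71C5 had a Pearson r of 0.55 over the 19 centred arrays. Of the abscisic acid list 1 of 25 genes was named, BGLU33, a vacuolar glucosidase that releases abscisic acid from the ester UGT71C5 makes. BGLU33 rose in ATR1_OE by 1.22 (limma adjusted p = 0.0203) and fell in MYB28_like_miR by 1.14 (limma adjusted p = 0.0477). WT_ATR1_MYB51 held the lowest BGLU33 mean of the 3 wild types, 175 ± 41.5 (SD, n = 2). ATR1_OE averaged 413 ± 135 (SD, n = 2), and its arrays overlapped with those of WT_MYB29_MYB76, at 370 ± 84.6 (SD, n = 3). BGLU33 differed by -0.82 in MYB29_OE, -0.88 in MYB76_OE and 0.60 in MYB51_OE, none of them called. In ATR1_like_miR the BGLU33 difference was -1.25 (limma adjusted p = 0.0591), and it was not called.

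**Figure D3:**
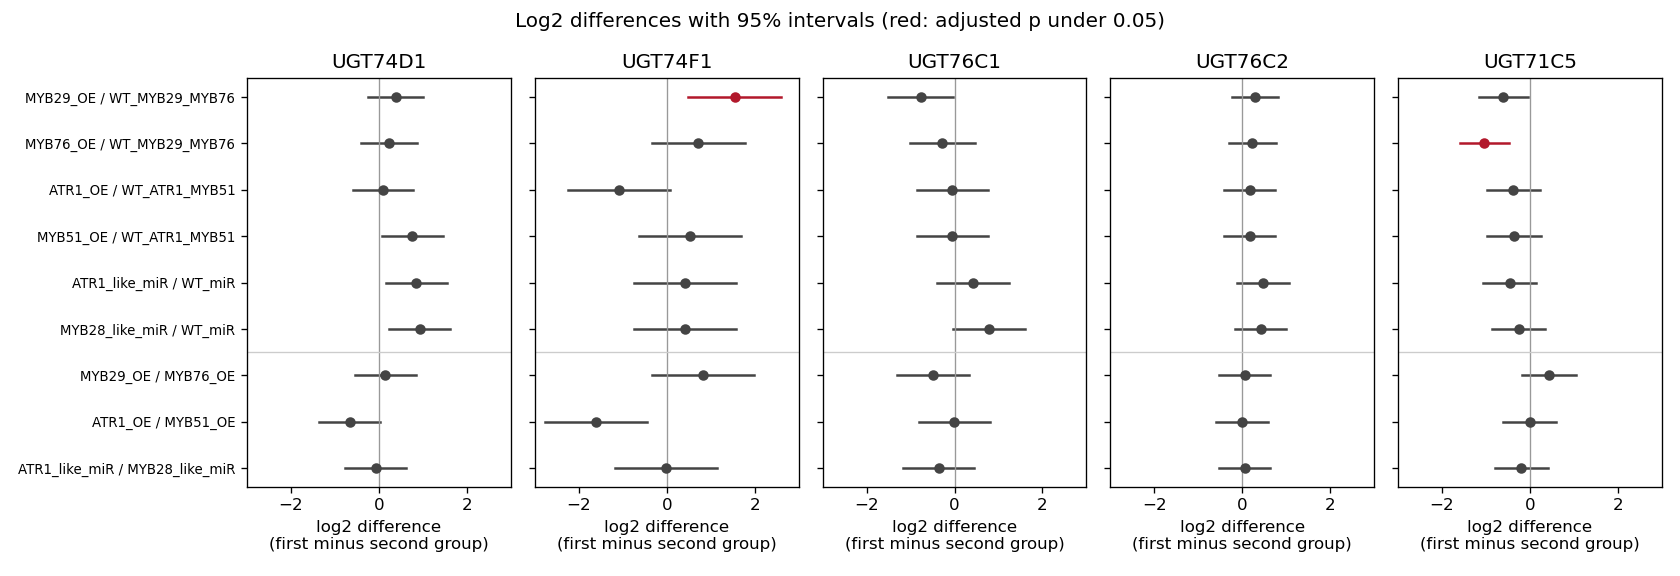
Log2 difference (horizontal axes) of the 5 genes in the 6 comparisons with wild type and the 3 between lines, with 95% intervals, first-named group minus second, red where the limma adjusted p was under 0.05. UGT74F1 in MYB29_OE (1.54) and UGT71C5 in MYB76_OE (-1.04) are the 2 red points.

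Direct comparisons between the lines of an experiment called none of the 5 genes. MYB29_OE against MYB76_OE had 0 at an unadjusted limma p under 0.05, where 3.28% of all probe sets reached it, and 0.0256% of all were called. The differences in that pair ranged from -0.49 for UGT76C1 to 0.82 for UGT74F1, and UGT71C5 stood at 0.43 (95% interval -0.18 to 1.03; limma adjusted p = 0.9998), so the call in 1 line alone is not shown to separate the lines. ATR1_like_miR against MYB28_like_miR also had 0 at an unadjusted limma p under 0.05, where 7.77% of all reached it and 0.032% were called. The differences there ranged from -0.36 for UGT76C1 to 0.057 for UGT76C2.

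Whether the response itself differed between classes of regulator was tested as a difference of changes, each line against its own wild type. Between the mean of ATR1_OE and MYB51_OE and the mean of MYB29_OE and MYB76_OE, UGT74F1 differed by -1.42 on the log2 scale (95% interval -2.75 to -0.080; limma adjusted p = 0.133), and limma called 0 of 5 where 18.1% of all were called. Between the mean of MYB29_OE and MYB76_OE and MYB28_like_miR, UGT76C1 differed by -1.31 (95% interval -2.33 to -0.29; limma adjusted p = 0.0637), with 0 of 5 called where 21.4% of all were. Between the mean of ATR1_OE and MYB51_OE and ATR1_like_miR, limma called 0 of 5, where 2% of all were called. An unadjusted limma p under 0.05 was reached by 0 of 5 there, where 15.1% of all reached it. UGT74F1 had the largest difference, -0.70 (95% interval -2.23 to 0.83).

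The UGTs listed for the glucosylation step of glucosinolate synthesis were measured on the same arrays. UGT74B1, the core glucosinolate glucosyltransferase, rose in all 4 overexpression lines, by 1.62 in MYB29_OE, 1.32 in MYB76_OE, 3.0 in ATR1_OE and 2.92 in MYB51_OE (log2, limma adjusted p of 0.000265 to 0.0275). AT2G31790, the other gene of that list, rose by 2.13, 1.93, 2.07 and 2.05 in the same order (limma adjusted p of 0.000487 to 0.0032). In the microRNA lines UGT74B1 differed by -0.92 in ATR1_like_miR and -0.93 in MYB28_like_miR, and AT2G31790 by -1.05 in ATR1_like_miR, none of them called, and AT2G31790 fell by 1.60 in MYB28_like_miR (limma adjusted p = 0.0127). UGT74D1, which shares the UGT74 family with UGT74B1, differed by 0.092 to 0.76 in the overexpression lines and was called in none. Its Pearson r over the 19 centred arrays was 0.29 with UGT74B1 and 0.24 with AT2G31790.

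Other hormone-conjugating UGTs were named for 11 of 18 list members, and 3 were tested. This list too was chosen with earlier results of these data known, so its counts are a description. Of these 3, limma called 2 higher in ATR1_OE, where 5.54% of all probe sets were. It called 1 higher in MYB28_like_miR, where 322 of all 15627 were called higher. Between ATR1_OE and MYB51_OE 1 was called higher, where 0.96% of all were. The remaining tested gene, AT3G21790, was called in no comparison. IAGLU (AT4G15550), annotated as an indole-3-acetate glucosyltransferase, rose in ATR1_OE by 1.54 on the log2 scale (limma adjusted p = 0.015), with 519 ± 103 in ATR1_OE and 180.5 ± 53.2 in WT_ATR1_MYB51 (SD, n = 2 each). It rose by 1.55 in MYB28_like_miR (limma adjusted p = 0.0284), with 182 ± 39.2 there and 62.1 ± 12.9 in WT_miR (SD, n = 2 each). WT_miR held the lowest IAGLU mean of the 9 groups. The MYB28_like_miR mean was near that of WT_ATR1_MYB51 and under that of WT_MYB29_MYB76, 275 ± 111 (SD, n = 3). AT5G03490, of the same list, rose by 2.65 in ATR1_OE (limma adjusted p = 0.00706), with 1 wild type array at the floor. It was higher there than in MYB51_OE by 2.67 (limma adjusted p = 0.0261). WT_ATR1_MYB51 held the lowest AT5G03490 mean of the 9 groups, 10.9 ± 6.91 (SD, n = 2). WT_MYB29_MYB76 averaged 62.6 ± 45.5 (SD, n = 3) and WT_miR 36.6 ± 8.41 (SD, n = 2). The highest WT_MYB29_MYB76 array, at 110.9, lay within the ATR1_OE range of 99.8 to 118.2.

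Relatives of the 5 genes within their own subfamilies were named for 6 of 7, and 2 were tested, UGT71C4 and AT5G05890, a gene close to UGT76C1 on its chromosome. AT5G05890 was not called in any comparison. Of the 68 genes beside the 5 that carry a UGT name in RefSeq, 46 were named on the array and 23 were tested, UGT74B1 and UGT71C4 described above among them. MYB29_OE had 1 of these 23 called higher, UGT74B1, and 5 lower, UGT71C4 among them, where 8.09% and 6.63% of all probe sets were. MYB76_OE had 3 higher and 1 lower, UGT71C4, where 7.15% and 5.61% of all were. ATR1_OE had 2 higher, UGT74B1 among them, where 5.54% of all were, and 0 lower, where 1503 of all 15627 were. MYB51_OE had 1 higher, UGT74B1, where 0.889% of all were, and 0 lower, where 76 of all 15627 were. In each microRNA line limma called 0, where 2.02% of all were called in ATR1_like_miR and 6.43% in MYB28_like_miR. At an unadjusted limma p under 0.05 there were 4 of the 23 in ATR1_like_miR, where 16.2% of all reached it. The same count was 4 in MYB28_like_miR, where 23.5% of all did. UGT72E1 in MYB29_OE, with 11.9 ± 14.6 there and 70.8 ± 22.9 in WT_MYB29_MYB76 (SD, n = 2 and 3), fell by 2.02, with 1 MYB29_OE array at the floor (limma adjusted p = 0.0195). UGT85A7 rose in MYB76_OE by 2.37 (limma adjusted p = 0.00955) and was at least 4.40-fold higher in ATR1_OE, where both wild type arrays lay at the floor (limma adjusted p = 0.0216).

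**Figure D4:**
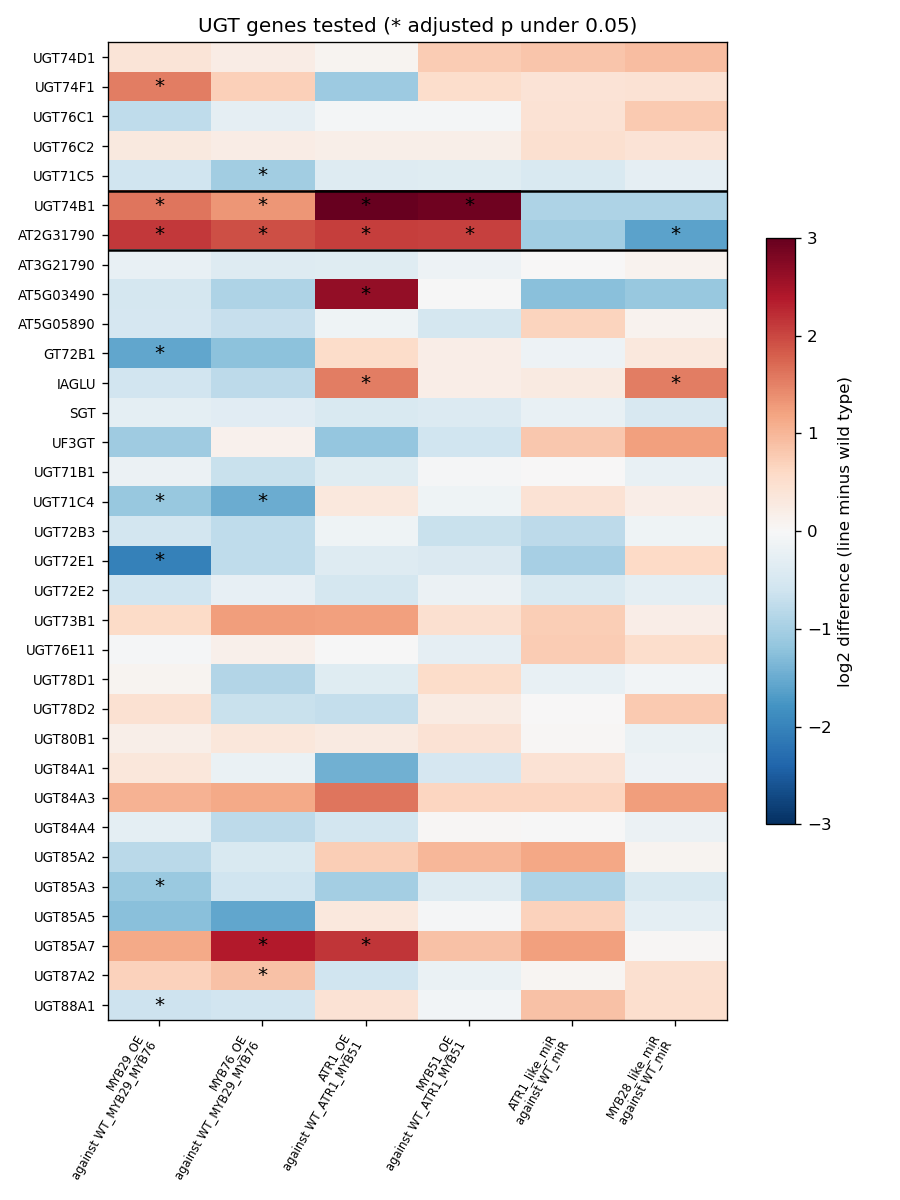
Log2 difference (colour, line minus its wild type) of 33 UGT genes tested in the 6 comparisons with wild type, with the 5 hormone-conjugating genes on top, the 2 glucosinolate UGTs next and 26 others beneath, and a star where the limma adjusted p was under 0.05. The glucosinolate UGTs carry a star in all 4 overexpression lines, and the 5 genes on top carry 2 stars in all.

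As a value chosen after the others had been seen, the mean change over the 6 lines was computed, each line against its own wild type. It takes overexpression and microRNA lines together. Lines of 1 experiment share their wild type arrays in it, and 7.58% of all probe sets tested were called. Arrays of 1 line also share that line, so counts of arrays are not counts of separate observations. How many of all probe sets kept 1 direction in 6 of 6 lines was not counted. UGT71C5 fell by 0.52 on the log2 scale (SE 0.14, limma adjusted p = 0.0309), lower in 6 of 6 lines and under its wild type mean on 12 of 12 arrays. UGT74D1 rose by 0.54 (SE 0.16, limma adjusted p = 0.048), higher in 6 of 6 lines and on 11 of 12 arrays. UGT76C2, at 0.29 (limma adjusted p = 0.201), was also higher in 6 of 6 lines and on 11 of 12 arrays. UGT74F1 stood at 0.42 (limma adjusted p = 0.366), higher in 5 of 6 lines, and UGT76C1 at 0.011 (limma adjusted p = 0.985), higher in 2 of 6. Over 27 alternatives UGT74D1 was called in 7, at 0.37 to 0.70, and UGT71C5 in 14, at -0.61 to -0.42. With the 19 arrays left out in turn, the call was lost for 15 arrays with UGT74D1 and for 10 with UGT71C5. The smallest sizes were 0.37 without WT_ATR1_MYB51 replicate 2 for UGT74D1 (limma adjusted p = 0.184) and -0.42 without WT_miR replicate 1 for UGT71C5 (limma adjusted p = 0.141). UGT76C2 passed the threshold without ATR1_like_miR replicate 1, at 0.38 (limma adjusted p = 0.038).

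The genes whose arrays followed each of the 5 most closely were sought among 8576 other probe sets with 1 gene, by Pearson r over the 19 arrays centred on the mean of their experiment. This is a description of arrays that share experiments and wild types. UGT74D1 was most like AT3G06035 (r = 0.86), AT1G12020 (0.80) and AT4G38370 (0.76), and least like AT1G50740 (-0.85) and AT3G57790 (-0.83). For UGT74F1 the highest were AT1G32190 (0.86), AT3G20260 (0.80) and ZCF125 (0.80), and the lowest were AT1G78280 (-0.88) and CSLC04 (-0.87).

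UGT76C1 was closest to AT2G29510 (r = 0.77), AT1G62510 (0.76) and AT5G11070 (0.76), with ATGRIP (-0.87) and AT3G50430 (-0.81) at the other end. UGT76C2 was closest to ATMAP65-6 (0.78), CUL4 (0.66) and AT3G60320 (0.65), with MPPBETA (-0.81) and AT3G10300 (-0.81) opposite. UGT71C5 was closest to AT1G23710 (0.84), AT3G19030 (0.84) and AT1G11740 (0.83), and its lowest were UGT85A7 (-0.82), itself a UGT, and AT5G57330 (-0.82). Among the 5 genes, r ranged from -0.42 for UGT74D1 with UGT71C5 to 0.43 for UGT76C1 with UGT76C2, so none of them was among another's closest.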

How the data were processed

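The submitters' processing notes name MAS5, and its version is not given in the sources used here. The authors deposited MAS5 signal intensity values on a linear scale, 1 column per array, and replicates were not pooled. The values themselves show a mean of 250 after trimming 2% at each end. No detection calls or scan dates were used, and no batch inside an experiment was examined. The labels do not say that replicates came from separate plants, so the p-values reflect variation among arrays that may be technical. The number of arrays limits the precision.

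Values were floored at each array's 20th percentile and taken to log2. Probe sets that reached the 40th percentile on at least 2 arrays were tested (15627, with 64 control probe sets left out). Group means (9) were fitted to all 19 arrays with limma 3.58.1 (eBayes with trend, 10 residual degrees of freedom, 5.62 prior) in R 4.3.3. Tests were two-sided, adjusted over all probe sets tested, threshold 0.05. The procedure was tested on simulated data with independent normal noise. These data held no differences between experiments and no values set to a floor, so the test does not cover them. Plots used matplotlib 3.10.9 (Python 3.11.15).

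Names came from the platform annotation and RefSeq (TAIR10.1), with 1 gene for 13513 probe sets, several for 503 and no entry for 8794, and 8577 of the single-gene ones were tested. The text names the 5 genes in every comparison, up to 4 called genes per list and comparison by size, UGT74B1 and AT2G31790, and the 3 highest and 2 lowest correlated genes. Genes and lists were chosen with earlier results of these data known. Alternatives changed scaling, floor, pseudocount (16), filter, variance trend, arrays in the fit, control arrays, replicate block and each array left out in turn.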

Additional observations from a re-analysis of the deposited data

How the results depend on the processing

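The UGT74F1 call in MYB29_OE was lost, leaving 0 of 5 genes called, with a floor at the 10th percentile (1.76, limma adjusted p = 0.132), log2(signal + 16) (1.14, 0.0885), no filter (0.0595), a filter at the 60th percentile (not tested), arrays of its experiment alone (0.062), all 7 wild type arrays as control (1.06, 0.35) or those of the other experiments (0.70, 0.641). With each array left out the count was 0 throughout. It held under quantile normalization and without the variance trend. The UGT71C5 call in MYB76_OE was lost, leaving 0, with all 7 wild type arrays (-0.74, 0.233) or those of the other experiments (-0.51, 0.419), and with an array left out the count was 0 to 1. Replicate numbers did not pair the arrays in a uniform way. Same-numbered deviations correlated at -0.218 to 0.158, and differently numbered ones at -0.158 to 0.218. The 0.158 lay between ATR1_OE and WT_ATR1_MYB51, and the 0.218 between differently numbered arrays of the microRNA lines. With 2 arrays in a group their deviations mirror each other. With the replicate block UGT74F1 was 1.44 (0.121) and UGT71C5 -0.83 (0.0921), so 0 were called in both lines. The block with MYB28_like_miR numbers crossed called 0 of 5 against WT_miR and against ATR1_like_miR, an alternative chosen after seeing the data, as were those of the mean over 6 lines. Counts became 1 in ATR1_like_miR with wild types of the other experiments (UGT71C5, -0.85), in MYB28_like_miR with arrays of its experiment alone (UGT74D1, adjusted p = 0.0475), for the MYB28 clade difference of changes under quantile normalization (UGT76C1, -1.45) and without MYB29_OE replicate 1 (-1.53), so 0 to 1 over arrays left out, and for indole against aliphatic lines without WT_ATR1_MYB51 replicate 1 (UGT74F1, -2.17), again 0 to 1. Uncalled values turned direction as follows, and the cause was not tested. With wild types of the other experiments, UGT74F1 in MYB76_OE was -0.12, UGT76C1 was 0.24 in ATR1_OE, 0.24 in MYB51_OE and -0.094 in ATR1_like_miR, UGT74D1 -0.13 in ATR1_like_miR and -0.048 in MYB28_like_miR, and UGT76C2 -0.083 and -0.14. With all 7 wild type arrays UGT76C1 was 0.15 in ATR1_OE, 0.16 in MYB51_OE and -0.0075 over 6 lines, and -0.027 there with the block. Under quantile normalization UGT76C1 was 0.25 in ATR1_OE and 0.14 in MYB51_OE, between them UGT76C1 was 0.11, UGT76C2 0.030 and UGT71C5 0.090, UGT76C2 between the microRNA lines was -0.021, and in the indole against aliphatic difference 0.011. Under log2(signal + 16) UGT76C1 between ATR1_OE and MYB51_OE was 0.0075. With arrays left out, ATR1_OE gave -0.41 to 0.59 for UGT74D1 and -0.48 to 0.37 for UGT76C1. MYB51_OE gave -0.23 to 1.27 for UGT74F1 and -0.19 to 0.093 for UGT76C1. ATR1_like_miR gave -0.12 to 0.94 for UGT74F1, -0.15 to 0.99 for UGT76C1 and -0.059 to 1.01 for UGT76C2. MYB28_like_miR gave -0.55 to 0.023 for UGT71C5 and -0.11 to 0.95 for UGT74F1. MYB29_OE against MYB76_OE gave -0.14 to 0.26 for UGT76C2. ATR1_OE against MYB51_OE gave -0.43 to 0.42 for UGT76C1, -0.13 to 0.12 for UGT76C2 and -0.25 to 0.23 for UGT71C5. Between the microRNA lines it was -0.93 to 0.21 for UGT76C1, -0.40 to 0.38 for UGT74F1, -0.24 to 0.087 for UGT74D1 and -0.48 to 0.59 for UGT76C2. The indole against aliphatic difference was -0.38 to 0.62 for UGT74D1 and -0.19 to 0.0070 for UGT76C2. The ATR1 clade difference was -0.92 to 0.083 for UGT74D1, -1.45 to 0.049 for UGT74F1, -0.19 to 0.37 for UGT71C5, -1.04 to 0.096 for UGT76C1 and -0.84 to 0.23 for UGT76C2. The 6-line mean of UGT76C1 was -0.084 to 0.11. Signal near the floor limits UGT74F1, and 2 arrays in most groups limit all values.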
